A study of Mus musculus with 18 samples.

Results

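The 63 protein-coding genes described here are amino acid transporters, taken by symbol as every member of the solute carrier (SLC) families SLC1, SLC3, SLC6, SLC7, SLC36, SLC38 and SLC43. The rule selects by name among 21970 protein-coding genes (56748 genes in all) and uses no measured value, although the families were chosen with earlier results of these data known. In total 26 of the 63 reached at least 1 FPKM (a level of sequenced fragments corrected for gene length and a size factor of each library) in at least 3 libraries, and these were tested among the 12896 genes that did. RNA sequencing was done on mouse colon organoids, which are epithelial cultures that grow in gel. The 6 groups of 3 libraries were organoids of the proximal, mid or distal colon, in either the control medium (ENR + WntCM, in which organoids proliferate) or a differentiation medium, both begun 3 days after passaging. The labels give no strain, age or genotype, each region is labelled as 1 organoid line, and nothing says whether replicates 1 to 3 came from separate cultures or animals. What the p-values weigh is thus only how far these libraries spread, which may be technical.

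Amino acids cross epithelial membranes on carriers that differ in charge preference, in coupling to sodium or protons, and in the face of the cell they occupy. Some carriers of the SLC7 family are light chains that reach the membrane only when bound to a heavy chain of the SLC3 family, Slc3a1 at the apical face or Slc3a2 elsewhere. The SLC6 family also holds carriers of neurotransmitters, creatine and taurine, so its members are not all carriers of amino acids. Dividing cells are known for high levels of the essential amino acid carrier Slc7a5 with Slc3a2, and of the glutamine carrier Slc1a5, while absorptive cells of the gut and kidney are known for the apical pair of Slc3a1 and Slc7a9.

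Recovered depth was 12827751 to 19938198 reads per library, of which 0.197% to 0.295% fell on the 63 transporters. A library that stood apart was proximal differentiation replicate 1, at 5.80 on the first principal component (63.5% of the variance) against 44.1 and 37.9 for the other 2 of its group. The 10 proliferation markers summed to 45.35 to 137.9 FPKM in proximal differentiation libraries, highest in replicate 1, against 31.93 to 67.04 FPKM in the mid and distal differentiation libraries. All 9 colon epithelial markers passed the level filter, and no marker of fibroblasts (0 of 6), immune or endothelial cells (0 of 8), nerve or muscle (0 of 8) or tuft cells (0 of 6) did. The summed level of 9 colonocyte markers was 309.8 to 2197 FPKM in control and 16290 to 27880 FPKM in differentiation libraries, that of 7 goblet markers 64.33 to 436.8 and 1060 to 3612 FPKM, and that of 8 enteroendocrine markers 0.978 to 31.33 and 13.04 to 140.3 FPKM. Most of the colonocyte sum in differentiation libraries was Car1 (means 18980, 13420 and 12770 FPKM in proximal, mid and distal organoids). In the same order Aqp8 had 0.4, 3078 and 4090 FPKM, and Tmigd1 278, 79.52 and 39.01 FPKM. Tested as described below, 4 of the 9 were higher and 2 lower in distal than in proximal differentiation libraries. Small intestine and Paneth markers (7 of 11 passed) summed to 6.045 to 25.99 FPKM in control and 43.72 to 195.0 FPKM in differentiation libraries. In differentiation libraries most of that sum was Alpi, an intestinal alkaline phosphatase of at most 181.5 FPKM. The Paneth markers Lyz1 and Mmp7 reached at most 17.45 and 18.24 FPKM, while the Paneth defensins Defa24 and Defa30 were at 0 in all 18 libraries. Whether these shifts in cell makeup contribute to the transporter results was not tested. In bulk libraries, fewer cells of a type and less RNA per cell cannot be told apart.

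Of the 37 transporters below the filter, 17 had 0 reads in every library. They include the glutamate carriers Slc1a6 and Slc1a7, the GABA carrier Slc6a11, the noradrenaline carrier Slc6a2, the glycine carrier Slc6a5, and Slc6a18, Slc7a10, Slc7a12, Slc7a13, Slc36a2, Slc36a3, Slc38a4 and Slc38a5. Slc6a16, Slc6a17 and Slc6a21 were also at 0. A further 14 had reads but stayed under 1 FPKM in each library, among them Slc7a2 (at most 0.0123 FPKM), Slc43a1 (0.0862 FPKM) and Slc6a20b (0.0307 FPKM). Just outside the filter were Slc7a8, a light chain for neutral amino acids, and Slc43a2, each at 1 FPKM or more in 2 libraries (highest 1.09 and 1.53 FPKM). Just inside were Slc6a20a and Slc38a9, each in 3 libraries, followed by Slc6a4 in 5 and Slc6a19 in 6. Slc3a1, Slc7a9, Slc6a4, Slc6a19 and Slc6a20a passed only through differentiation libraries, so a higher level in that medium is built into their passing. Slc38a9 passed only through the 3 proximal differentiation libraries, which favours a lower value in the other regions in the same way. Neither Slc43a2 nor the other 2 SLC43 members could be tested. The gene Slc7a6os, named for its place opposite Slc7a6, is not a carrier and was not counted.

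In control medium the highest mean belonged to Slc38a2 or Slc3a2 in each region. Slc38a2, a sodium-coupled carrier of small neutral amino acids and glutamine, had the highest mean in proximal control (48.3 ± 7.59 FPKM, SD, n = 3) and mid control (35.5 ± 1.8 FPKM). The heavy chain Slc3a2 ranked first in distal control (44.2 ± 22.998 FPKM), where Slc38a2 followed at 43.2 ± 8.92 FPKM. Those 2 means differed by less than the spread between libraries, as did Slc38a2 and Slc3a2 (45.6 ± 7.84 FPKM) in proximal control. In differentiation medium the leading gene was the taurine carrier Slc6a6 in proximal organoids (79.7 ± 17.9 FPKM) and the creatine carrier Slc6a8 in mid (203 ± 23.4 FPKM) and distal organoids (221 ± 82.6 FPKM). Slc6a8 alone made up 32.6% of the summed transporter FPKM in mid and 37.05% in distal differentiation medium. In each region the gene that led in differentiation medium thus carries taurine or creatine, neither of which is built into proteins. Summed by family, SLC6 stood at 50.7 ± 4.23 and 155 ± 43.9 FPKM (control, then differentiation) in proximal, 70.2 ± 7.76 and 389 ± 38.4 FPKM in mid, and 78.7 ± 8.31 and 333 ± 63.9 FPKM in distal organoids. The SLC1 sum went the other way, at 69.6 ± 13.6 and 47.5 ± 3.33, 56.3 ± 8.26 and 22.5 ± 2.61, and 52.1 ± 21.3 and 18.8 ± 1.63 FPKM in the same order. SLC7 was likewise lower, at 111 ± 19.8 and 86.1 ± 7.14, 75.8 ± 1.72 and 46.3 ± 5.12, and 98.02 ± 30.6 and 38.2 ± 8.58 FPKM. These sums are descriptions without a test, and they depend on how the libraries were scaled.

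**Figure D1:**
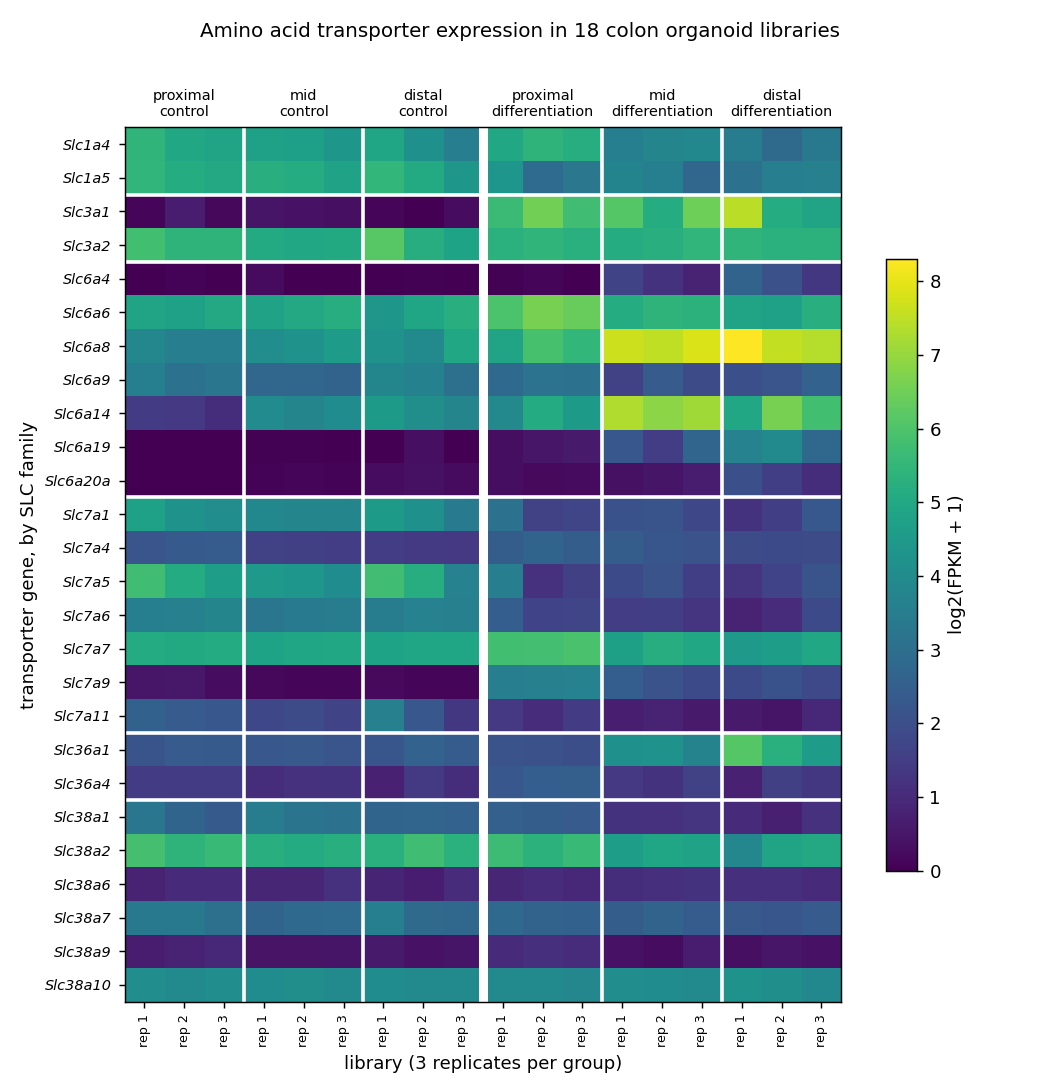
Levels of the 26 transporter genes that passed the filter (vertical axis, ordered by SLC family) in each of the 18 libraries (horizontal axis), with colour giving log2(FPKM + 1). Slc3a1 is dark in all 9 control libraries and much brighter in all 9 differentiation libraries, while Slc38a10 and Slc3a2 change little in colour. Slc7a9 brightens less, and most in proximal differentiation libraries.

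The comparison of the media asked which transporters differ between proliferating and differentiating organoids of 1 region. Testing was on log2(FPKM + 1) with limma, and "called" means an adjusted p under 0.05 by the Benjamini-Hochberg method over all 12896 tested genes. In proximal organoids 7 of the 26 transporters were called higher (26.9%, against 27.6% of all tested genes) and 6 lower (23.1%, against 26.2%). Mid organoids had 8 higher (30.8%, against 31.5%) and 8 lower (30.8%, against 32%). Distal organoids had 9 higher (34.6%, against 31.6%) and 10 lower (38.5%, against 31.3%). These shares lay near those of all tested genes, and several transporters had passed the filter through 1 medium only, so the counts say nothing particular of the group. When the libraries were scaled to equal total reads, proximal organoids had 7 higher and 9 lower. Mid organoids then had 8 and 12, and distal organoids 8 and 13. That scaling moved the median log2 fold change of all genes from -0.0147 to -0.262, from 0 to -0.336 and from 0.00302 to -0.349 in the same order.

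Of the 26, 4 were called higher in each of the 3 regions: Slc3a1, Slc7a9, Slc6a14 and Slc6a8 (15.4%, against 20.1% of all tested genes). For Slc3a1 and Slc7a9, which no control library brought past the filter, a higher value was a condition of being tested. A further 5 were called lower in each region: Slc7a5, Slc7a1, Slc7a6, Slc7a11 and Slc1a5 (19.2%, against 19.5% of all tested genes). No transporter was called in opposite directions in different regions, and 4 were called in none: Slc3a2, Slc38a6, Slc38a9 and Slc38a10. For each call in the 3 medium comparisons, the 3 control and 3 differentiation libraries did not overlap. The share of all called genes without overlap was not counted, so this says nothing particular of the transporters. In the same comparisons all 6 crypt stem markers were called lower in each region, as were 5, 10 and 9 of the 10 proliferation markers in proximal, mid and distal organoids, and 8, 9 and 9 of the 9 colonocyte markers were called higher.

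**Figure D2:**
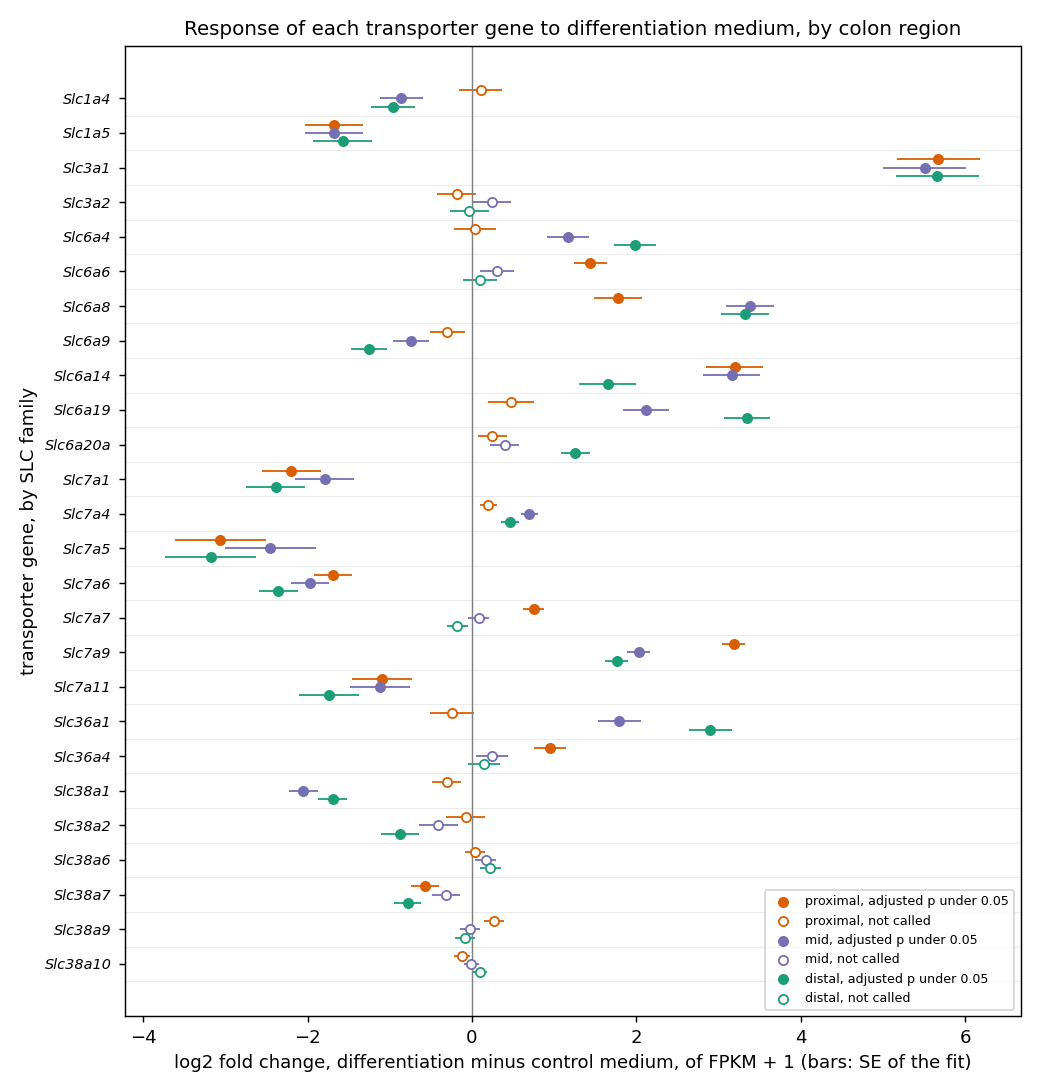
Log2 fold change of FPKM + 1, differentiation minus control medium (horizontal axis), for each of the 26 tested transporter genes (vertical axis) in proximal, mid and distal organoids; points are the fitted values from 3 libraries per group, bars their SE, and filled points have an adjusted p under 0.05. The 3 points of Slc3a1 lie between 5.51 and 5.67, while Slc36a1 and Slc6a19 are called in mid and distal organoids only.

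Slc3a1, the heavy chain of the apical carrier for cystine and basic amino acids (ENSMUSG00000024131, chromosome 17, 85335804 to 85371664 on mm39), had the largest response of all 26. Its promoter is shown because it held the only match, among the 20 tested transporters with a promoter window, to a motif of HNF4, a nuclear receptor of the intestinal epithelium. The promoter of its light chain Slc7a9 stands beside it, with 1 of 2 annotated starts chosen for display and no match to any motif searched. Both are bases -120 to -1 before the start in RefSeq on GRCm38.p6, 5′ to 3′ on the gene's strand, and the capitals mark the match to CAAAGTNCA.
Slc3a1: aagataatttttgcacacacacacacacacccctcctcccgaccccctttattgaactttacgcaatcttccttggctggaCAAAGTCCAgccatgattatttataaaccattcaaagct
Slc7a9: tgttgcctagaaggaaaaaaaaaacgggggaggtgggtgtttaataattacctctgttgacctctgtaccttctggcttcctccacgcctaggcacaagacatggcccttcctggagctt

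In proximal organoids Slc3a1 was at 0.085, 0.57 and 0.132 FPKM in control and 49.1, 92.6 and 53.6 FPKM in differentiation medium. Mid organoids had 0.376, 0.315 and 0.271 FPKM in control and 68.4, 34.5 and 87.1 FPKM in differentiation medium. Distal organoids had 0.0867, 0.021 and 0.222 FPKM in control and 174, 33.96 and 27.8 FPKM in differentiation medium. No control library exceeded 0.57 FPKM and no differentiation library was under 27.8 FPKM, with distal differentiation replicate 1 far above the other 2. The log2 fold changes of FPKM + 1 were 5.67 ± 0.51 (adjusted p = 6.21e-07, limma), 5.51 ± 0.51 (adjusted p = 4.16e-07) and 5.66 ± 0.51 (adjusted p = 3.85e-07) in proximal, mid and distal organoids. The distal response minus the proximal one was -0.01 ± 0.71 on that scale (adjusted p = 0.995), so the interaction was not called. With a pseudocount of 0.1 the fold changes were larger and less even, at 7.675, 7.143 and 8.148 in proximal, mid and distal organoids. Slc3a1 overlaps Prepl on the opposite strand by 767 bases, and Prepl stood at 5.86 to 19.2 FPKM. Strand use in the counting is not stated, so reads of the 2 genes in this stretch cannot be told apart.

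Slc7a9, the light chain that binds Slc3a1 and carries the amino acids (ENSMUSG00000030492, chromosome 7, 35148221 to 35165461), rose in the same 3 comparisons. Its levels were 0.409, 0.45 and 0.223 FPKM in control and 10.8, 11.3 and 11.8 FPKM in differentiation medium in proximal organoids. In mid organoids they were 0.124, 0.0955 and 0.0766 FPKM in control and 4.61, 3.35 and 2.67 FPKM in differentiation medium. The distal levels were 0.166, 0.0893 and 0.105 FPKM in control and 2.62, 3.25 and 2.54 FPKM in differentiation medium. Each proximal differentiation library was above every library of the other 5 groups. Log2 fold changes were 3.18 ± 0.14 (adjusted p = 5.17e-10, limma), 2.03 ± 0.14 (adjusted p = 1.84e-08) and 1.76 ± 0.14 (adjusted p = 8.91e-08). Its response was called different between regions (distal minus proximal -1.42 ± 0.19, adjusted p = 0.000293). That interaction depends on the pseudocount, since with 0.1 in place of 1 it was -0.94 (adjusted p = 0.129). The proximal, mid and distal fold changes themselves became 4.67, 4.17 and 3.73 with the smaller pseudocount.

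**Figure D3:**
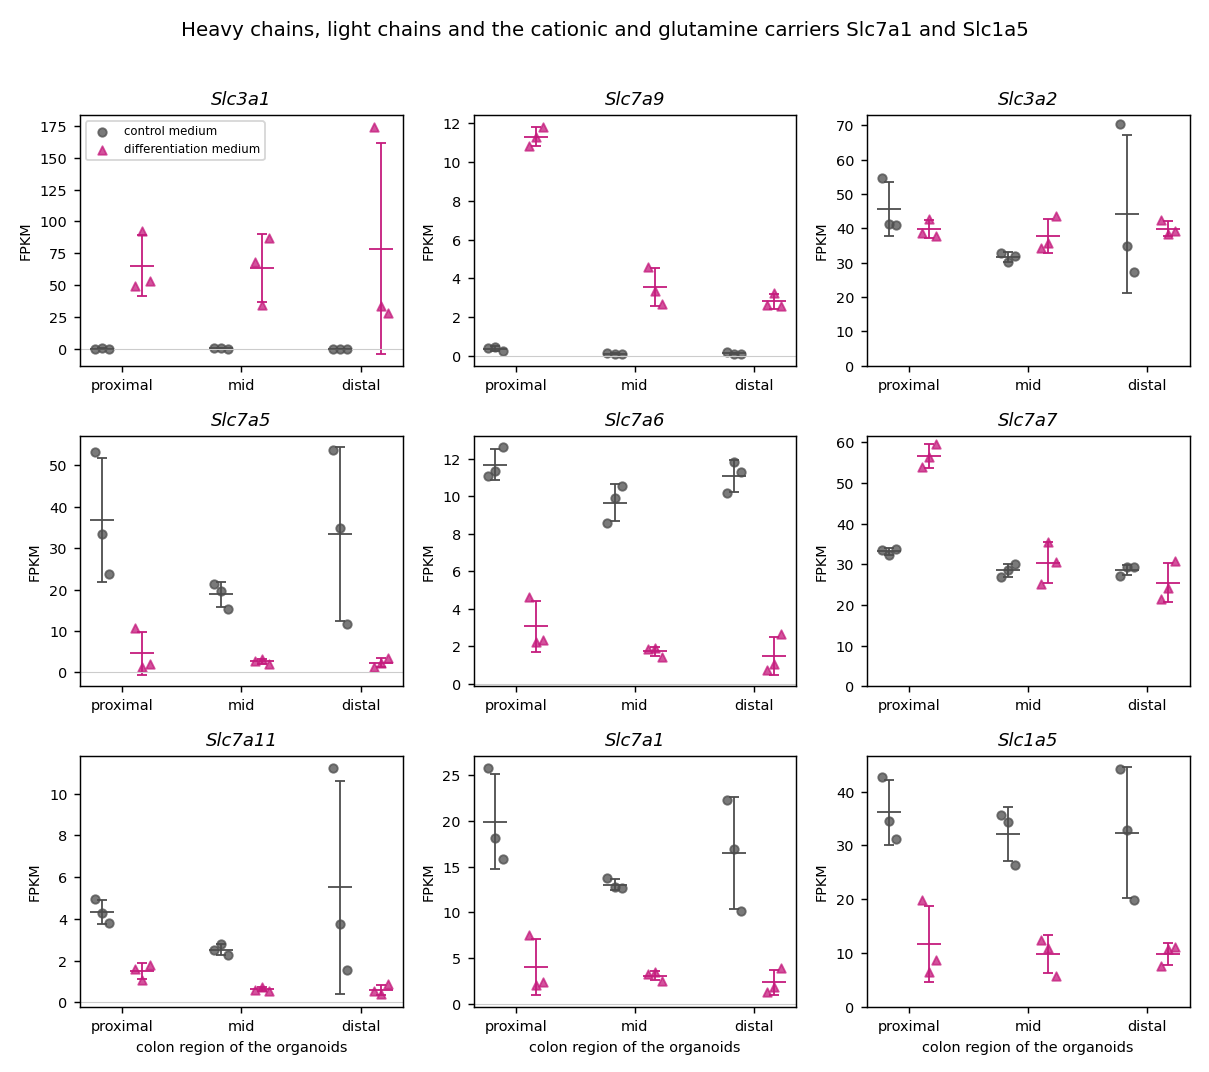
FPKM (vertical axes) of the heavy chains Slc3a1 and Slc3a2, the light chains Slc7a9, Slc7a5, Slc7a6, Slc7a7 and Slc7a11, and the carriers Slc7a1 and Slc1a5 in organoids of the 3 regions (horizontal axes); each point is a library, circles are control and triangles differentiation medium, horizontal lines are means and bars SD (n = 3). Slc3a1 and Slc7a9 are higher, and Slc7a5, Slc7a6, Slc7a11, Slc7a1 and Slc1a5 lower, in differentiation medium in each region.

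Slc3a2, the broadly used heavy chain (ENSMUSG00000010095, chromosome 19, 8684246 to 8700733), was called in no medium comparison. Its levels were 54.7, 41.3 and 40.9 FPKM in control and 38.7, 42.8 and 37.7 FPKM in differentiation medium in proximal organoids. They were 32.8, 30.1 and 31.9 FPKM in control and 34.2, 35.7 and 43.5 FPKM in differentiation medium in mid organoids. In distal organoids they were 70.4, 34.9 and 27.4 FPKM in control and 42.4, 38.2 and 39.1 FPKM in differentiation medium. The groups of each region overlapped except in mid organoids, where the lowest differentiation library was above the highest control library. On the log2 scale the differences were -0.18 ± 0.24, 0.24 ± 0.24 and -0.03 ± 0.24 (adjusted p = 0.532, 0.385 and 0.917, limma). Without distal control replicate 1, the highest of all 18 libraries, the distal value became 0.36 (adjusted p = 0.0478).

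Of the light chains that pair with Slc3a2, Slc7a5, which exchanges large neutral amino acids (ENSMUSG00000040010, chromosome 8, 122607889 to 122634433), fell the most. Proximal organoids had 53.3, 33.4 and 23.8 FPKM in control and 10.6, 1.29 and 1.98 FPKM in differentiation medium. Mid organoids had 21.4, 19.7 and 15.4 FPKM in control and 2.65, 3.33 and 1.93 FPKM in differentiation medium. Distal organoids had 53.6, 34.9 and 11.7 FPKM in control and 1.36, 2.15 and 3.51 FPKM in differentiation medium. No control library overlapped with a differentiation library of the same region, although proximal differentiation replicate 1 was well above the other 2 of its group. The log2 fold changes were -3.06 ± 0.55 (adjusted p = 0.000334, limma), -2.45 ± 0.55 (adjusted p = 0.00124) and -3.18 ± 0.55 (adjusted p = 0.000154). Slc7a6, a light chain that exchanges basic for neutral amino acids (ENSMUSG00000031904, chromosome 8, 106895489 to 106925338), had 11.1, 11.4 and 12.6 FPKM in control and 4.62, 2.22 and 2.34 FPKM in differentiation medium in the proximal region. It had 8.56, 9.87 and 10.5 FPKM in control and 1.82, 1.91 and 1.43 FPKM in differentiation medium in the mid region. It had 10.2, 11.8 and 11.3 FPKM in control and 0.744, 1.07 and 2.63 FPKM in differentiation medium in the distal region. Its control libraries of all 3 regions lay within 8.56 to 12.6 FPKM, and the log2 fold changes were -1.69 ± 0.23, -1.97 ± 0.23 and -2.35 ± 0.23 (adjusted p = 3.68e-05, 4.53e-06 and 9.79e-07, limma).

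Slc7a7, which also exchanges basic for neutral amino acids and sits at the basolateral face (ENSMUSG00000000958, chromosome 14, 54606899 to 54655237), did not follow Slc7a6. Its proximal levels were 33.4, 32.3 and 33.8 FPKM in control and 53.97, 56.3 and 59.7 FPKM in differentiation medium, without overlap (log2 fold change 0.75 ± 0.13, adjusted p = 0.000196, limma). That value was 0.44 with libraries scaled to total reads (adjusted p = 0.0268). Mid organoids had 26.97, 28.5 and 30.04 FPKM in control and 25.2, 35.5 and 30.6 FPKM in differentiation medium, and distal organoids 27.1, 29.3 and 29.4 FPKM in control and 21.4, 24.1 and 30.8 FPKM in differentiation medium. Both of these pairs of groups overlapped, with log2 fold changes of 0.08 ± 0.13 and -0.18 ± 0.13 (adjusted p = 0.604 and 0.239). Slc7a7 overlaps Oxa1l on the other strand by 232 bases, and Oxa1l stood at 9.09 to 16.3 FPKM.

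Slc7a11, the light chain that imports cystine for glutathione synthesis (ENSMUSG00000027737, chromosome 3, 49846975 to 50398063), is known as a target of the amino acid response, in which ATF4 binds elements with the core TGATGNAA. Its promoter is printed because it held this core once on each strand within 120 bases before the start, in the same RefSeq table and orientation as above, with both matches in capitals.
Slc7a11: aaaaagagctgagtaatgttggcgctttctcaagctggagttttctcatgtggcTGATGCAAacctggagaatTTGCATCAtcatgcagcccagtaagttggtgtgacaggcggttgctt

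Slc7a11 was at 4.94, 4.26 and 3.78 FPKM in control and 1.6, 1.09 and 1.81 FPKM in differentiation medium in proximal organoids. It was at 2.51, 2.81 and 2.26 FPKM in control and 0.608, 0.716 and 0.523 FPKM in differentiation medium in mid organoids. In distal organoids it was at 11.2, 3.74 and 1.53 FPKM in control and 0.525, 0.378 and 0.878 FPKM in differentiation medium. The media did not overlap in any region, but the distal control libraries were spread widely. Log2 fold changes were -1.10 ± 0.37 (adjusted p = 0.0195, limma), -1.12 ± 0.37 (adjusted p = 0.0141) and -1.74 ± 0.37 (adjusted p = 0.000729). The proximal call was lost without control replicate 1 (adjusted p = 0.0579) or without differentiation replicate 2 (adjusted p = 0.0719). Without distal control replicate 1 the distal value was -1.13 (adjusted p = 0.000627).

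Slc7a1, a carrier of arginine and lysine that needs no heavy chain (ENSMUSG00000041313, chromosome 5, 148264220 to 148336714), was at 25.8, 18.1 and 15.8 FPKM in control and 7.54, 2.1 and 2.37 FPKM in differentiation medium in proximal organoids. The mid values were 13.7, 12.7 and 12.6 FPKM in control and 3.27, 3.44 and 2.49 FPKM in differentiation medium. The distal values were 22.3, 16.97 and 10.1 FPKM in control and 1.3, 1.88 and 3.88 FPKM in differentiation medium. All control libraries were above all differentiation libraries, and the log2 fold changes were -2.20 ± 0.36, -1.79 ± 0.36 and -2.39 ± 0.36 (adjusted p = 0.000151, 0.000482 and 4.47e-05, limma). Slc7a4, a relative of Slc7a1 whose cargo is not settled, moved in the other direction and by less (0.70 ± 0.11 in mid and 0.46 ± 0.11 in distal organoids, adjusted p = 4.24e-05 and 0.00133). With libraries scaled to total reads these values were 0.38 and 0.15, and the distal one was no longer called (adjusted p = 0.243).

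The 2 tested members of SLC1 are exchangers of neutral amino acids rather than glutamate carriers. Slc1a5, which takes up glutamine (ENSMUSG00000001918, chromosome 7, 16515265 to 16532199), was at 42.8, 34.5 and 31.1 FPKM in control and 19.8, 6.47 and 8.74 FPKM in differentiation medium in proximal organoids. Mid values were 35.7, 34.3 and 26.3 FPKM in control and 12.4, 10.98 and 5.71 FPKM in differentiation medium. Distal values were 44.3, 32.9 and 19.9 FPKM in control and 7.48, 10.8 and 11.2 FPKM in differentiation medium. The media did not overlap in any region, and the log2 fold changes were close to each other, at -1.68 ± 0.35, -1.68 ± 0.35 and -1.57 ± 0.35 (adjusted p = 0.00106, 0.000735 and 0.00123, limma). Slc1a4, which carries serine, alanine and other small neutral amino acids (ENSMUSG00000020142, chromosome 11, 20252180 to 20282713), was at 42.2, 30.1 and 28.1 FPKM in control and 30.9, 41.2 and 35.3 FPKM in differentiation medium in proximal organoids, where the media overlapped. It was at 26.05, 24.5 and 20.002 FPKM in control and 11.03, 12.8 and 13.6 FPKM in differentiation medium in mid organoids. In distal organoids it was at 28.6, 17.2 and 10.8 FPKM in control and 10.4, 6.3 and 9.34 FPKM in differentiation medium. The proximal log2 fold change was 0.11 ± 0.26 (adjusted p = 0.757), against -0.86 ± 0.26 in mid (adjusted p = 0.00997) and -0.96 ± 0.26 in distal organoids (adjusted p = 0.00501). Whether the response of Slc1a4 differed between distal and proximal organoids was tested and not called (-1.07 ± 0.37, adjusted p = 0.094). Without distal control replicate 1 its distal value was -0.62 (adjusted p = 0.0301), and a fit of the 2 distal groups alone gave an adjusted p of 0.0565.

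Slc6a14, a broad carrier of neutral and cationic amino acids driven by sodium and chloride (ENSMUSG00000031089, chromosome X, 21581135 to 21608594), was at 1.78, 1.6 and 1.15 FPKM in control and 13.9, 33.4 and 22.3 FPKM in differentiation medium in proximal organoids. Mid values were 15.1, 12.8 and 15.5 FPKM in control and 159, 116 and 139 FPKM in differentiation medium. Distal values were 22.2, 16.1 and 12.7 FPKM in control and 29.8, 97.1 and 54.7 FPKM in differentiation medium. In each region every differentiation library exceeded every control library, and the control libraries of mid and distal organoids all exceeded those of proximal organoids. The log2 fold changes between media were 3.20 ± 0.35, 3.16 ± 0.35 and 1.65 ± 0.35 (adjusted p = 4.07e-06, 2.26e-06 and 0.000717, limma). The smaller distal value was not called different from the proximal one (interaction -1.55 ± 0.49, adjusted p = 0.0654).

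Slc6a8, which imports creatine (ENSMUSG00000019558, chromosome X, 72716756 to 72726108), was at 13.3, 10.7 and 10.8 FPKM in control and 27.9, 58.5 and 44.7 FPKM in differentiation medium in proximal organoids. Mid values were 15.9, 17.9 and 22.5 FPKM in control and 203, 179.9 and 227 FPKM in differentiation medium. Distal values were 18.1, 14.8 and 30.95 FPKM in control and 316, 184 and 164 FPKM in differentiation medium. The lowest of the mid and distal differentiation libraries, at 164 FPKM, was above the highest proximal library, at 58.5 FPKM. On the log2 scale the differences were 1.77 ± 0.29, 3.38 ± 0.29 and 3.32 ± 0.29 (adjusted p = 0.000159, 2.33e-07 and 3.29e-07, limma).

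Slc6a19, the main apical sodium-coupled carrier of neutral amino acids in small intestine and kidney (ENSMUSG00000021565, chromosome 13, 73827864 to 73852984), was at 0, 0 and 0 FPKM in control and 0.241, 0.431 and 0.518 FPKM in differentiation medium in proximal organoids. With 0 reads in all 3 proximal control libraries, the proximal rise was at least 35.65-fold by the ratio of means, with the control group set to a limit of 3 reads in total (0.0111 FPKM, counting error only). Mid values were 0.0284, 0.0306 and 0.0205 FPKM in control and 3.79, 1.82 and 5.55 FPKM in differentiation medium. Distal values were 0.0197, 0.277 and 0 FPKM in control and 11.7, 14.6 and 5.93 FPKM in differentiation medium. The log2 fold changes of FPKM + 1 were 0.48 ± 0.28 (adjusted p = 0.163, limma, not called), 2.12 ± 0.28 (adjusted p = 1.28e-05) and 3.35 ± 0.28 (adjusted p = 1.99e-07). With a pseudocount of 0.1 they were 2.27, 4.78 and 5.94 and the proximal value was called too (adjusted p = 0.00169).

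Slc6a6, the taurine carrier (ENSMUSG00000030096, chromosome 6, 91661034 to 91736047), was at 27.9, 25.8 and 31.1 FPKM in control and 61.02, 96.8 and 81.3 FPKM in differentiation medium in proximal organoids, without overlap (log2 fold change 1.44 ± 0.20, adjusted p = 4.83e-05, limma). In mid organoids it was at 26.6, 31.2 and 35.4 FPKM in control and 34.4, 40.9 and 39.8 FPKM in differentiation medium, and in distal organoids at 20.1, 29.2 and 36.5 FPKM in control and 27.8, 25.8 and 36.7 FPKM in differentiation medium. The groups overlapped in both of these regions, with log2 fold changes of 0.30 ± 0.20 and 0.10 ± 0.20 (adjusted p = 0.211 and 0.702). Slc6a9, a glycine carrier, fell in mid and distal organoids, with log2 fold changes of -0.74 ± 0.22 (adjusted p = 0.00745) and -1.25 ± 0.22 (adjusted p = 0.000146), and had -0.30 ± 0.22 in proximal organoids (adjusted p = 0.255).

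Slc6a4, the serotonin carrier (ENSMUSG00000020838, chromosome 11, 76889429 to 76923166), is a carrier of a monoamine and not of an amino acid. It reached at most 0.0881 FPKM in the 6 proximal libraries and 0.188 FPKM in the 9 control libraries. It was at 2.29, 1.34 and 0.763 FPKM in mid and at 5.21, 3.15 and 1.52 FPKM in distal differentiation libraries. The log2 fold changes were 0.04 ± 0.26, 1.17 ± 0.26 and 1.98 ± 0.26 (adjusted p = 0.92, 0.00102 and 1.22e-05, limma). With a pseudocount of 0.1 the mid and distal values became 3.34 and 4.70. Slc6a20a, a carrier of proline and other imino acids, was at 3.1, 1.88 and 1.13 FPKM in distal differentiation libraries and at most 0.549 FPKM in the other libraries. Its distal log2 fold change was 1.25 ± 0.18 (adjusted p = 2.47e-05), and with a pseudocount of 0.1 it was 2.60.

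Slc36a1, a proton-coupled carrier of small amino acids at lysosomes and the apical face (ENSMUSG00000020261, chromosome 11, 55095176 to 55127156), was at 3.44, 4.28 and 4.1 FPKM in control and 3.33, 3.15 and 3.005 FPKM in differentiation medium in proximal organoids, where all 3 differentiation libraries were slightly lower than the control libraries (log2 fold change -0.24 ± 0.26, adjusted p = 0.454, limma). Mid values were 3.83, 3.97 and 3.55 FPKM in control and 17.1, 17.9 and 12.2 FPKM in differentiation medium. Distal values were 3.62, 5.05 and 4.38 FPKM in control and 67.8, 37.5 and 22.6 FPKM in differentiation medium. The control libraries of the 3 regions lay together, and the mid and distal differentiation libraries were all above them. Log2 fold changes were 1.79 ± 0.26 in mid (adjusted p = 3.28e-05) and 2.90 ± 0.26 in distal organoids (adjusted p = 4.53e-07). Its relative Slc36a4, a carrier of proline and tryptophan, rose in proximal organoids (0.95 ± 0.19, adjusted p = 0.0008) and had values of 0.24 ± 0.19 and 0.15 ± 0.19 in mid and distal organoids (adjusted p = 0.283 and 0.514). The response of Slc36a4 was not called different between distal and proximal organoids (interaction -0.80 ± 0.27, adjusted p = 0.0858).

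SLC38 is a family that includes sodium-coupled carriers of glutamine and other neutral amino acids. None of its 6 tested members was called higher, where 27.6%, 31.5% and 31.6% of all tested genes were in proximal, mid and distal organoids. Slc38a1, a glutamine importer (ENSMUSG00000023169, chromosome 15, 96469299 to 96540794), was at 8.64, 5.44 and 4.16 FPKM in control and 4.89, 4.5 and 4.19 FPKM in differentiation medium in proximal organoids. Mid values were 10.3, 8.13 and 7.76 FPKM in control and 1.31, 1.29 and 1.39 FPKM in differentiation medium. Distal values were 5.39, 5.54 and 5.07 FPKM in control and 0.974, 0.677 and 1.26 FPKM in differentiation medium. The mid and distal groups were apart by a wide gap, while the proximal groups overlapped. On the log2 scale the differences were -0.31 ± 0.18, -2.05 ± 0.18 and -1.70 ± 0.18 (adjusted p = 0.154, 2.4e-07 and 1.67e-06, limma). The proximal value was called when libraries were scaled to total reads (-0.58, adjusted p = 0.0191) and without control replicate 3 (-0.51, adjusted p = 0.0213). Slc38a2 fell in distal organoids (-0.88 ± 0.24, adjusted p = 0.00458), where differentiation replicate 1 was the lowest library, and the value without it was -0.51 (adjusted p = 0.0156). In a fit of the distal groups alone the adjusted p of Slc38a2 was 0.0637. Slc38a7 fell in proximal and distal organoids (-0.57 ± 0.17 and -0.78 ± 0.17, adjusted p = 0.00937 and 0.000831). Slc38a6, Slc38a9, a lysosomal arginine sensor of the mTORC1 pathway, and Slc38a10 were called in no region, and Slc38a10 stayed within 13.4 to 17.9 FPKM in all 18 libraries.

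The comparisons between regions within a medium asked whether transporters differ along the colon. Each group enters 2 of these comparisons, and the proximal and distal groups also enter the interaction, so their values share libraries. In control medium the counts were low in the fit of all groups. Between distal and proximal organoids 1 of 26 was called higher (5.57% of all tested genes were), Slc6a14 at 2.82 ± 0.35 (adjusted p = 4.56e-05, limma). Lower calls numbered 2 (4.98% of all tested genes), Slc7a4 at -0.88 ± 0.11 (adjusted p = 3.29e-05) and Slc1a4 at -0.87 ± 0.26 (adjusted p = 0.0462). Slc7a4 was at 3.52, 4.16 and 4.33 FPKM in proximal and 1.87, 1.67 and 1.58 FPKM in distal control libraries, without overlap. The Slc1a4 groups overlapped, and its call was lost without distal control replicate 3 (-0.55, adjusted p = 0.156), without any of 4 other libraries and in a fit of the 2 groups alone (adjusted p = 0.213). Mid against proximal gave 2 calls (13.3% of all tested genes), again Slc6a14 (2.62 ± 0.35, adjusted p = 9.83e-05) and Slc7a4 (-0.76 ± 0.11, adjusted p = 0.000163). That count was 7 in a fit of the 2 groups alone, and 4 with no filter or with libraries scaled to total reads. Distal against mid gave 0 calls by limma (0.326% of all tested genes), with 2 transporters at an unadjusted p under 0.05 and a lowest adjusted p of 0.189. Without distal control replicate 3 there was 1 call.

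In differentiation medium 17 of the 26 differed between distal and proximal organoids. The 6 higher in distal organoids (23.1%, against 15.6% of all tested genes) were Slc36a1 (3.25 ± 0.26), Slc6a19 (2.997 ± 0.28), Slc6a8 (2.31 ± 0.29), Slc6a4 (1.94 ± 0.26), Slc6a20a (1.30 ± 0.18) and Slc6a14 (1.27 ± 0.35), as log2 fold changes of FPKM + 1. Their adjusted p-values ran from 2.1e-07 to 0.0115. Slc6a19 and Slc6a4 had passed the filter only through mid and distal differentiation libraries, and Slc6a20a only through distal ones. The place of these genes among the 6 was thus favoured by the filter. The Slc6a14 groups overlapped, and its call was lost without proximal differentiation replicate 1 (0.96, adjusted p = 0.0576), without distal differentiation replicate 2 (0.86, adjusted p = 0.068) or in a fit of the 2 groups alone (adjusted p = 0.124). Slc6a4 and Slc6a20a were 4.40 and 2.76 with a pseudocount of 0.1.

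The 11 lower in distal organoids (42.3%, against 14.3% of all tested genes) were led by Slc1a4 (-1.94 ± 0.26, adjusted p = 4.95e-05, limma), Slc7a9 (-1.70 ± 0.14, adjusted p = 1.72e-07) and Slc38a1 (-1.50 ± 0.18, adjusted p = 1.31e-05). Next were Slc6a6 (-1.37 ± 0.20), Slc36a4 (-1.19 ± 0.19), Slc7a7 (-1.14 ± 0.13), Slc38a2 (-0.97 ± 0.24) and Slc6a9 (-0.76 ± 0.22). The last 3 were Slc7a6 (-0.73 ± 0.23), Slc38a9 (-0.65 ± 0.12) and Slc7a4 (-0.62 ± 0.11). Adjusted p-values of these 8 ran from 7.59e-06 (Slc7a7) to 0.0259 (Slc7a6, whose groups overlapped). Slc38a9 had passed the filter only through its proximal differentiation libraries, so its place among the 11 was favoured by the filter. The calls of Slc7a6 and Slc6a9 rested on single libraries. Slc7a6 lost its call without proximal differentiation replicate 1 (-0.48, adjusted p = 0.122), distal differentiation replicate 1 (adjusted p = 0.122) or replicate 2 (adjusted p = 0.0996), with no filter (adjusted p = 0.058) and in a fit of the 2 groups alone (adjusted p = 0.2). Slc6a9 lost it without proximal differentiation replicate 2 (adjusted p = 0.0501), distal differentiation replicate 1 (adjusted p = 0.0615) or replicate 2 (adjusted p = 0.0532). Slc38a2 had -0.60 without distal differentiation replicate 1 (adjusted p = 0.0138) and lost its call in a fit of the 2 groups alone (adjusted p = 0.0882), and Slc38a9 had -1.46 with a pseudocount of 0.1.

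Without proximal differentiation replicate 1, the library that stood apart, 5 were higher and 9 lower between distal and proximal organoids in differentiation medium, and the medium comparison in proximal organoids still had 7 and 6. Mid against proximal differentiation gave 14 calls (29.4% of all tested genes), 5 higher and 9 lower in mid organoids, and 12 without that library. Distal against mid differentiation gave 3 calls, all higher in distal organoids (0.69% of all tested genes): Slc6a20a (1.05 ± 0.18, adjusted p = 0.00834, limma), Slc36a1 (1.26 ± 0.26, adjusted p = 0.0375) and Slc6a19 (1.32 ± 0.28, adjusted p = 0.0408). Slc6a20a had passed the filter only through its distal differentiation libraries, so its call here was favoured by the filter. A fit of the 2 groups alone gave 0 calls. The count was also 0 without mid differentiation replicate 1 or distal differentiation replicate 1, and 1 without mid or distal differentiation replicate 2.

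The interaction asked directly whether the response to differentiation medium differed between distal and proximal organoids. It called 9 of the 26, of which 5 were positive (19.2%, against 4.16% of all tested genes) and 4 negative (15.4%, against 4.09%). The positive ones were Slc36a1 (3.14 ± 0.37, adjusted p = 8.88e-05, limma), Slc6a19 (2.87 ± 0.40, adjusted p = 0.000359), Slc6a4 (1.94 ± 0.36, adjusted p = 0.00372), Slc6a8 (1.55 ± 0.41, adjusted p = 0.031) and Slc6a20a (1.005 ± 0.25, adjusted p = 0.0224). The negative ones were Slc7a9 (-1.42 ± 0.19, adjusted p = 0.000293), Slc38a1 (-1.39 ± 0.25, adjusted p = 0.00297), Slc6a6 (-1.35 ± 0.29, adjusted p = 0.00965) and Slc7a7 (-0.93 ± 0.18, adjusted p = 0.00469). Slc38a1 fell further in distal organoids, while Slc7a9, Slc6a6 and Slc7a7 had their larger rise in proximal organoids. An F test over the responses of all 3 regions called the same 9 genes (9.59% of all tested genes were called). Slc6a19 and Slc6a4 passed the filter only through mid and distal differentiation libraries and Slc6a20a only through distal ones, so the place of all 3 in the positive count was favoured by the filter.

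The interaction of Slc6a8 was the least steady, since it lost its call without any of 8 libraries (adjusted p at most 0.0772, without distal control replicate 2), with no filter (adjusted p = 0.0688) and in a fit of the 4 groups alone (adjusted p = 0.0939). Slc6a20a lost its call without proximal control replicate 2 (adjusted p = 0.052) or replicate 3 (adjusted p = 0.0524), and with a pseudocount of 0.1 (1.12, adjusted p = 0.27) or in a fit of the 4 groups alone (adjusted p = 0.0795). For Slc6a4 the smaller pseudocount gave 4.41 (adjusted p = 0.00396). Without proximal differentiation replicate 1, the interaction called 9 transporters, of which Slc6a8 was not one (1.27, adjusted p = 0.0628).

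**Figure D4:**
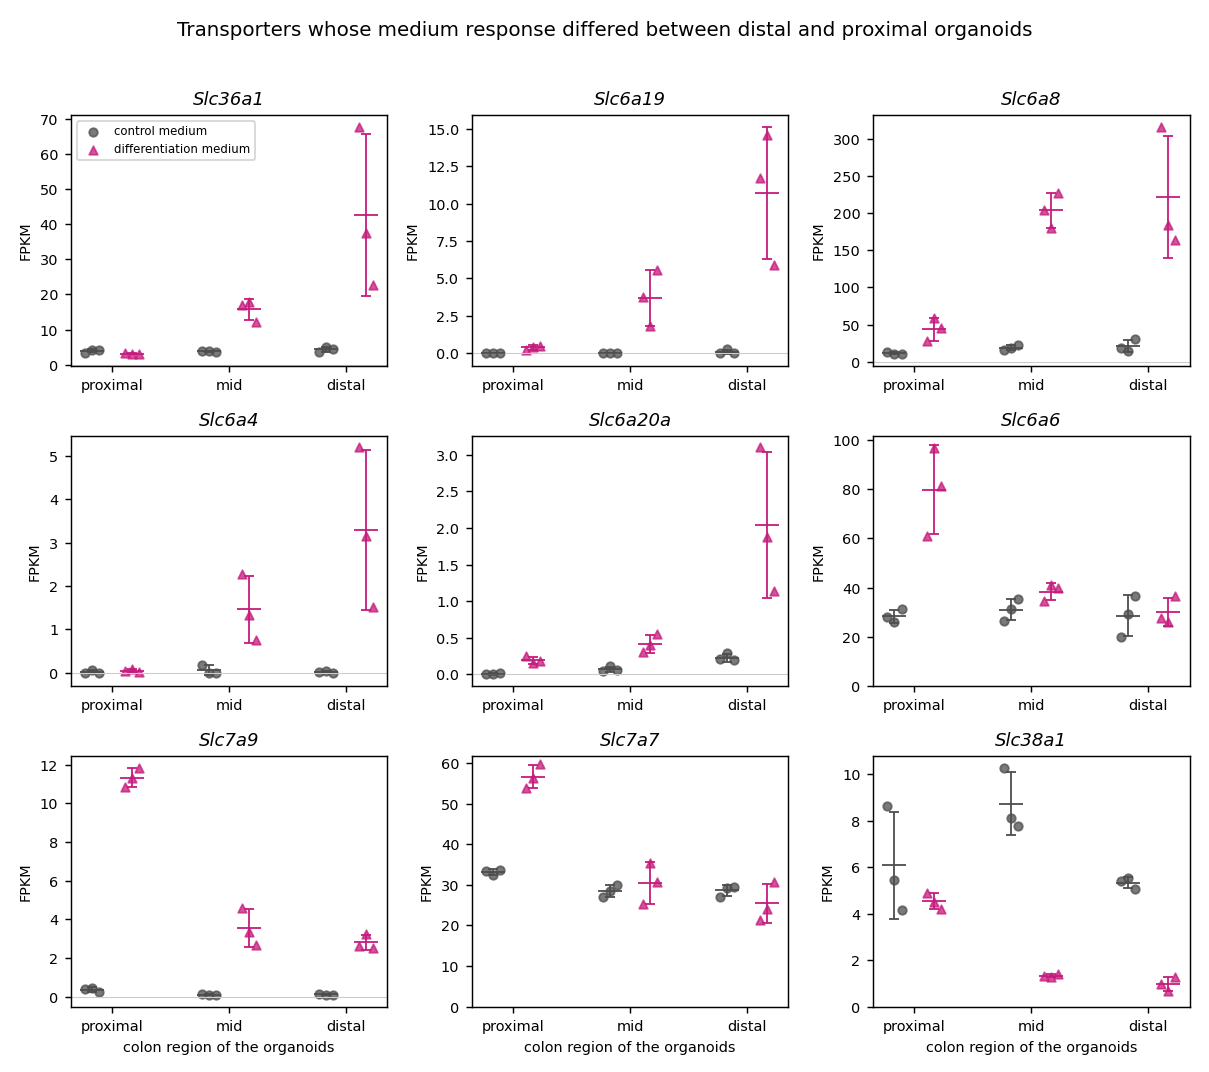
FPKM (vertical axes) of the 9 transporter genes called in the interaction, in organoids of the 3 regions (horizontal axes); each point is a library, circles are control and triangles differentiation medium, horizontal lines are means and bars SD (n = 3). Slc36a1, Slc6a19, Slc6a8, Slc6a4 and Slc6a20a have their highest mean in distal differentiation medium, whereas Slc6a6, Slc7a9 and Slc7a7 have theirs in proximal differentiation medium.

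Promoter windows of 300 bases (250 before to 50 after the start) were found in RefSeq for 20 of the 26 tested transporters, 29 windows in all. Slc1a5, Slc38a1, Slc6a6, Slc6a8, Slc7a4 and Slc7a5 were not matched. The core TGATGNAA, searched on both strands, was in 4 of the 29 windows (13.8%), those of Slc7a11, Slc7a7 and Slc1a4, against 3.97% of all 32851 windows. CAAAGTNCA was in 1 (3.45%), that of Slc3a1, against 1.41%. TGACNNNGC, the core of the antioxidant response element, was in 7 (24.1%), those of Slc7a1, Slc7a6, Slc6a9, Slc38a2 and Slc36a1, against 12.4%. Slc7a11, Slc7a1 and Slc7a6 were called lower in each region, Slc1a4 and Slc6a9 in 2 regions and Slc38a2 in 1, with no higher call. Slc7a7 was called higher in 1 region and Slc36a1 in 2, with no lower call. The match of Slc36a1 lay after the start, and that of Slc1a4 spanned it. Whether either core goes with a direction of response was not tested. The windows overlap where a gene has more than 1 start, and a match describes letters only.

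The amino acid response genes, which ATF4 induces when amino acids run short, were called lower more often than higher in differentiation medium. Of 31 tested in proximal organoids, 4 were higher and 18 lower, where 27.6% and 26.2% of all tested genes were. Mid organoids had 4 higher and 13 lower (31.5% and 32% of all tested genes), and distal organoids 3 and 19 (31.6% and 31.3%), with median log2 fold changes of -0.97, -0.53 and -0.98 against -0.0147, 0 and 0.00302 over all tested genes. The serine synthesis enzyme Phgdh fell in all 3 regions (log2 fold changes -2.22, -2.84 and -3.84 in proximal, mid and distal organoids, adjusted p = 0.00474, 0.000574 and 4.64e-05, limma). Shmt2, which passes the carbon of serine to folate in mitochondria, had log2 fold changes of -2.29, -3.02 and -2.997. Among the listed genes with higher means in differentiation medium was Cth, at 13.6 and 27.2 FPKM (control, then differentiation) in proximal organoids. It had 8.04 and 41.4 FPKM in mid, and 12.3 and 39.9 FPKM in distal organoids. Ddit3 had 6.91 and 19.02, 7.54 and 21.8, and 15.2 and 21.7 FPKM in the same order, with an SD of 16.5 FPKM in distal control. The list was chosen by function and holds no transporter of the 63, and it shares Cth with the list of glutathione enzymes.

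Other amino acid carriers and partners had 7 of 14 called higher in proximal, 9 in mid and 9 in distal organoids, and 0 lower, with median log2 fold changes of 0.29, 0.67 and 0.77. Over all tested genes, 27.6%, 31.5% and 31.6% were called higher in these regions, and 26.2%, 32% and 31.3% lower. Ctns, the lysosomal cystine exporter, showed a regional response like that of Slc36a1 in sign: it rose in mid (1.29 ± 0.15, adjusted p = 3.6e-06, limma) and distal organoids (1.64 ± 0.15, adjusted p = 4.32e-07), had -0.25 ± 0.15 in proximal organoids (adjusted p = 0.16), and its interaction was called (1.90 ± 0.21, adjusted p = 5.03e-05). Genes by which mTORC1 senses amino acids were split, with 7 of 32 higher and 4 lower in proximal organoids. Mid organoids had 12 and 7, and distal organoids 10 and 7, and the medians were 0.04, 0.18 and 0.14. The shares of all tested genes in each region were those given for the list above. Sesn1, a sestrin that restrains mTORC1, rose in proximal organoids (1.91 ± 0.18, adjusted p = 8.14e-07), with an interaction of -1.75 ± 0.25 (adjusted p = 0.000466).

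Enzymes of glutamine and glutathione metabolism gave 12 of 20 higher and 6 lower in proximal organoids. Mid organoids had 8 and 7, and distal organoids 8 and 8, with median log2 fold changes of 0.46, 0.20 and 0.07. Over all tested genes, 27.6%, 31.5% and 31.6% were called higher in proximal, mid and distal organoids, and 26.2%, 32% and 31.3% lower. Gpt, an alanine aminotransferase, rose by 4.38 ± 0.51, 4.30 ± 0.51 and 4.39 ± 0.51 on the log2 scale in the 3 regions (adjusted p = 8.81e-06, 5.15e-06 and 4.7e-06, limma). Ggt1, which breaks down glutathione outside the cell, rose by 3.11 ± 0.36 in mid and 2.45 ± 0.36 in distal organoids (adjusted p = 4.1e-06 and 3.93e-05). Its mean was also higher in differentiation medium in proximal organoids, at 2.28 ± 1.16 FPKM against 0.0117 ± 0.0202 FPKM in control (SD). Anpep, an apical aminopeptidase that releases amino acids for uptake, rose in proximal organoids (1.95 ± 0.25, adjusted p = 2.09e-05) and had an interaction of -1.89 ± 0.36 (adjusted p = 0.00393). The glutathione synthesis genes Gclc and Gclm also had called interactions, of -1.25 ± 0.36 and -1.37 ± 0.33 (adjusted p = 0.0422 and 0.0179).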

How the data were processed

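Poly-A RNA of 18 mouse colon organoid libraries was sequenced. The authors deposited FPKM per gene and library, with gene lengths and mm39 positions, per the file headers. The tools HISAT2 2.0.5 (an aligner) and featureCounts 1.5.0-p3 (a read counter) and the build mm39 were used per the submitters' processing notes. The annotation release, the strand setting and how libraries were scaled are not given in the sources used here. Median-of-ratios factors (the median ratio of a library to the geometric mean of each gene) were 1 in every library. Values already scaled in that way would give this. FPKM times gene length gave whole reads for every gene (tolerance 0.001 of a read), which gave each library's depth. The library size behind the FPKM was 1.15 to 1.20 times that depth in control and 0.757 to 1.04 times in differentiation libraries. FPKM of differentiation libraries are thus higher, relative to control, than under scaling to total reads. The 6 columns of group means equal the mean of their 3 libraries, and 0 value columns were unmapped.

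Tests were made on log2(FPKM + 1) for genes that reached an FPKM of 1 in 3 or more libraries. The 6 group means were fitted in 1 model of the 18 libraries (limma 3.58.1, R 4.3.3; two-sided, empirical Bayes with a trend, 12 residual degrees of freedom). P-values were adjusted by the Benjamini-Hochberg method over all 12896 genes of a comparison, with a threshold of 0.05, and the fit was tested on simulated data. A fold change on this scale understates the change of low genes, and a pseudocount of 0.1 was the alternative. Errors are SE of the fit or SD over 3 libraries. Tables and plots were made with Python 3.11.15, pandas 2.3.3, numpy 2.4.6 and matplotlib 3.10.9.

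The transporters, the 15 gene lists (194 entries) and the tests were chosen with earlier results of these data known. Values per library are given for both heavy chains, the 12 largest called medium responses and the 6 largest called distal against proximal differences (with a group mean of at least 5 FPKM), and the 6 largest called interactions. Slc6a6, Slc7a7 and Slc6a20a, the other transporters called in the interaction, and Slc7a4 were added to these after their values were seen, as was Slc7a9 among the promoters shown. Values of 2 further genes are not reported here.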

Additional observations from a re-analysis of the deposited data

Results flagged for a closer look

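For 9 transporters the response to differentiation medium differed between distal and proximal organoids by limma's interaction test with Benjamini-Hochberg adjustment over all tested genes, where 4.16% of all tested genes had a called positive and 4.09% a called negative difference. The values below are the distal response minus the proximal response, as log2 fold changes of FPKM + 1 over 3 libraries per group. The response was larger in distal organoids for the proton-coupled carrier Slc36a1 (3.14, adjusted p = 8.88e-05), the neutral amino acid carrier Slc6a19 (2.87, adjusted p = 0.000359) and the serotonin carrier Slc6a4 (1.94, adjusted p = 0.00372). It was also larger for the creatine carrier Slc6a8 (1.55, adjusted p = 0.031) and the imino acid carrier Slc6a20a (1.005, adjusted p = 0.0224). It was smaller, or a deeper fall, in distal organoids for the light chain Slc7a9 (-1.42, adjusted p = 0.000293), the glutamine importer Slc38a1 (-1.39, adjusted p = 0.00297), the taurine carrier Slc6a6 (-1.35, adjusted p = 0.00965) and the light chain Slc7a7 (-0.93, adjusted p = 0.00469). With 0.1 as the pseudocount, Slc7a9 (adjusted p = 0.129) and Slc6a20a (adjusted p = 0.27) were no longer called, and the call of Slc6a8 was lost without any of 8 libraries. Slc6a19, Slc6a4 and Slc6a20a had passed the filter only through mid or distal differentiation libraries, which favoured their positive values.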

How the results depend on the processing

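The alternatives were a pseudocount of 0.1, a filter at 5 FPKM, no filter, scaling to total reads or by median-of-ratios factors, a fit of only the groups compared, leaving out each library in turn, and the replicate number as a block. The F test uses all 6 groups and has no fit of fewer. The median-of-ratios factors were 1 in every library, so that alternative equals the reported values by construction. Of 225 alternative counts, 201 were within 1.5 times the reported one. This total, and that of the single transporters below, include the median-of-ratios alternative, which could not differ. With no filter, 13 transporters were higher in mid differentiation medium, and in control medium 3 were higher and 1 lower in distal against proximal organoids, 4 were called in mid against proximal, and 1 in distal against mid differentiation. With a pseudocount of 0.1, 2 were higher in distal against proximal control and 1 was called in distal against mid differentiation. A filter at 5 FPKM left 1 lower in distal against proximal control, 1 called in mid against proximal control and 1 in distal against mid differentiation. The fit of only the groups compared gave 1, 7 and 0 for the same 3 counts, and scaling to total reads gave 4 for mid against proximal control. Leaving out single libraries gave 1 to 3 lower calls in distal against proximal control, 0 to 1 calls in distal against mid control and 0 to 3 in distal against mid differentiation. The cause of these changes was not tested.

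For the single transporters, 1094 of 1148 alternative values kept their direction and side of the threshold. Without a change of sign, 39 lost the call and 4 gained it. A further 11 changed sign, and none of these had been called in the reported fit. Slc3a2 in distal organoids changed sign without distal control replicate 1 and was then called (0.36, adjusted p = 0.0478, limma). The interaction of Slc3a1 was 0.47 with a pseudocount of 0.1 and ran from -0.83 to 0.47 when libraries were left out. Slc3a2 in mid organoids was -0.18 with total-read scaling, and in distal organoids it ran from -0.31 to 0.36 when libraries were left out, the highest without distal control replicate 1. Slc1a4 in proximal organoids was -0.21 with total-read scaling and ran from -0.0040 (without proximal control replicate 3) to 0.28 when libraries were left out.

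Replicates with the same number in different groups share only that number. Over 45 pairs their deviations from the group means correlated at -0.387 to 0.542 (median 0.107, 23 of the 45 over 0.1), against a median of -0.0629 for other numbers, and 47 of 90 best matches were the own number. With the replicate block, 2 of the transporter calls changed: Slc6a19 in distal against mid differentiation (adjusted p = 0.0693, against 0.0408), leaving 2 calls there, and Slc36a4 in the interaction (adjusted p = 0.0484, against 0.0858), which then had 10. Depth limits Slc6a4, Slc6a19 and Slc6a20a most, with few or 0 reads in control libraries.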
